A study of Mus musculus with 40 samples.

Results

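The nuclear-encoded genes of the mitochondrial respiratory chain were followed in single cells of female mouse blastocysts. The genes were taken by name, as the rows of the count table whose symbol belongs to the Ndufa, Ndufb, Ndufc, Ndufs or Ndufv subunits of complex I, the Sdh subunits of complex II, the Uqcr subunits of complex III, the Cox4 to Cox8 subunits of complex IV or the Atp5 subunits of ATP synthase. This gave 84 of 24499 genes, with 37 in complex I, 4 in complex II, 8 in complex III, 18 in complex IV and 17 in ATP synthase. The rule reads gene names and uses no measured value, although it was set with earlier results of these data known.

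The respiratory chain sits in the inner mitochondrial membrane. Complexes I and II take electrons from NADH and succinate, complex III passes them to cytochrome c and complex IV hands them to oxygen, while complexes I, III and IV pump protons that ATP synthase lets back to make ATP. Most subunits are encoded in the nucleus and a few core subunits in the mitochondrial genome. Complex II is also an enzyme of the citric acid cycle and has nuclear subunits only. The blastocyst is known for a rise in oxygen use, and its outer layer, the trophectoderm, spends much ATP on pumping sodium into the cavity.

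The 40 cells came from 13 embryos, conceived by natural mating, whose maternal genome was C57BL/6J and whose paternal genome was CAST/EiJ. Polyadenylated RNA of each cell had been copied from its 3′ end, amplified and sequenced. Each cell carried a class that the study had set from its stage and its lineage factors: 10 epiblast (Epi) cells of 2 embryos and 13 primitive endoderm (PrE) cells of 3 embryos at E4.0, and 14 inner cell mass (ICM) cells of 7 embryos and 3 trophectoderm (TE) cells of 3 embryos at E3.5. All 3 TE cells and 3 ICM cells had been made for an earlier study. Embryo 14 gave 16 of the 23 cells at E4.0, to both Epi and PrE, and embryo 4 gave a cell to both ICM and TE. Of the 2 Epi embryos, embryo 14 gave 9 Epi cells and embryo 17 gave 1. ICM embryos 4, 11 and 13 and each TE embryo also gave 1 cell, so there the spread between cells and embryos cannot be told apart. The embryo was the replicate: the cells of 1 class from 1 embryo were added up, which gave 15 sums, and a class with 2 or 3 embryos carries wide errors. Totals per cell lay between 1019112 and 12833051 counts, and 4 cells had under 70% of their reads mapped. The mapped share was not given for the cells of the earlier study, so the TE cells could not be judged by it. Markers of the classes, which the study partly used to set them, followed the labels: 10 trophectoderm markers summed to 5.7 to 12.1 in Epi embryos, 19.4 to 44.3 in PrE embryos and 8870 to 13400 in TE embryos, in RPRT, the authors' read count scaled to depth and to the retrotranscribed length of a transcript. The 10 epiblast markers summed to 1750 to 2270 RPRT in Epi embryos, against 369 to 961 RPRT in PrE embryos, and the 10 primitive endoderm markers to 13.2 to 75.9 RPRT in Epi embryos, against 863 to 1590 RPRT in PrE embryos. Among ICM embryos the sum of the trophectoderm markers was 1290, 1930 and 753 in embryos 4, 12 and 13 and 37.4 to 139 in the other 4. The fits of counts that rest on ICM cells were therefore also run without the ICM cells of those 3 embryos. Shares of counts, the make-up of the Atp5g transcripts and paternal shares were not recomputed without them.

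Of the 84 genes, 77 passed the filter on low counts and were tested. The other 7 had almost no counts in any of the 40 cells. Cox4i2, the form of Cox4 known from lung, had 3 counts, Cox8c, known from testis, had 19 counts in 3 cells, and Cox6a2 and Cox8b, forms of heart and muscle, Cox7b2 and Ndufa4l2 had 0 counts. A count of 0 over all cells allows up to 0.00886 CPM (counts scaled to the library total), which covers counting error only. Ndufs5, a complex I subunit, stood apart in this group. Its row held 1 count in all, yet the table of allelic ratios, for which the authors required a minimum of reads per gene, gave it a ratio in 40 of 40 cells. This combination, with at most 3 counts, occurred in 9 of 11909 genes (0.0756%), so the count of Ndufs5 was not read as its level. The count table had 0 rows for mitochondrially encoded subunits, so the mitochondrial side of the chain was not analysed here. In each cell, 72 to 78 of the 84 genes had a count.

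For 69 of the 84 genes promoters of 300 bases (250 before to 50 after a start site) could be taken from RefSeq, build GRCm38.p6. They were searched because the factors NRF1, GABP and YY1 are known regulators of respiratory genes, and because most of the genes below shifted to the same side in some comparisons. Both strands were searched for GCGCANGCGC (NRF1), CCGGAAG (GABP and other ETS factors) and AANATGGCG (YY1), none of which contains another. Some genes, such as Ndufa5, had more than 1 start site, which gives more room for a match. The Atp5g3 window below belongs to a start site inside the span of the gene (chr2:73908447-73912464). The NRF1 letters were in 17 of the 69 genes with a promoter (24.6%) and in 5.19% of all 27025 genes with a promoter. The GABP letters were in 16 (23.2%) and in 9.93%, and the YY1 letters in 11 (15.9%) and in 2.76%. A match describes the sequence and does not show binding. The windows below hold the motif in capitals for 4 genes to which the results return.
Uqcrh, GABP letters, chr4:116075063-116075092, plus strand: cggcgacctggCCGGAAGtgcggcatactc
Atp5g3, NRF1 letters, chr2:73911295-73911324, plus strand: ggggctgggcGCGCAAGCGCggtgcggctc
Sdhd, NRF1 letters, chr9:50603909-50603938, minus strand: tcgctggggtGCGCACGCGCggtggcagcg
Ndufb11, YY1 letters, chrX:20617811-20617840, minus strand: tcaccaacacAAAATGGCGacgagaagaga

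Respiratory chain genes were among the most abundant of each cell. Averaged over the 4 class means, 3 of the 81 genes with an RPRT value were over 1000 RPRT, 51 were between 100 and 1000, 20 between 10 and 100, 3 between 1 and 10, and 4 under 1. Their median was 169 RPRT, against 3.57 RPRT for all 17280 genes, and 30 of them were among the 500 most abundant genes. The highest was Cox4i1, a subunit of complex IV, at 1670 RPRT, which ranked 72 of 17280. Atp5g3, which encodes the c subunit of the proton-driven ring of ATP synthase, had 1250 RPRT, and Atp5b, the catalytic beta subunit, had 1240 RPRT. Atp5o, a subunit of the stalk that holds the catalytic head, followed at 975 RPRT. ATP synthase genes thus had the highest median of the 5 complexes, at 595 RPRT, against 193 for complex III, 142 for complex II, 119 for complex IV and 108 for complex I.

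Within complex I the highest levels were those of the accessory subunits Ndufb9 (540 RPRT), Ndufb8 (483) and Ndufa8 (339), and the lowest was Ndufa4l2 at 0. In complex II, Sdhb, the iron-sulphur subunit, was highest at 345 RPRT, Sdhc, a membrane anchor, had 195 RPRT, Sdha, the flavoprotein that oxidises succinate, had 89.2 RPRT, and Sdhd, the other anchor, had 33 RPRT. In complex III the core protein gene Uqcrc1 had 431 RPRT, Uqcr10 had 321, Uqcrb had 198 and Uqcrq, the lowest, had 49.8. In complex IV, Cox6b1 (466) and Cox6c (400) came after Cox4i1, and Cox4i2 was lowest at 0.0234. The lowest gene of the ATP synthase group was Atp5s at 4.99 RPRT, which RefSeq lists as Dmac2l.

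The share of a cell's counts in all 84 genes averaged 1.74 ± 0.266% in Epi (SD, n = 2 embryos), 1.88 ± 0.139% in PrE (n = 3), 2.12 ± 0.424% in ICM (n = 7) and 2.46 ± 0.567% in TE (n = 3). The embryos were at 1.55 and 1.93% for Epi, at 1.76, 1.84 and 2.03% for PrE, at 1.56 to 2.73% with a median of 2.08% for ICM, and at 2.07, 2.2 and 3.11% for TE. Epi overlapped PrE, and the ICM embryos overlapped those of every other class. The 3 TE embryos lay above all Epi and PrE embryos, a gap between classes that differ in stage and in study as well as in lineage and that was not tested. In the ICM, embryos 4, 12 and 13 had the highest shares, at 2.27, 2.51 and 2.73%, against 1.56 to 2.08% in the other 4 embryos. These are the ICM embryos with the high trophectoderm markers, and the part of those markers in the share was not tested. The study's methods state that ICMs were freed by immunosurgery, which kills the outer cells; whether this held for the ICM cells of the earlier study is not given in the sources used here.

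The complexes did not follow the same pattern. Complex I took 0.383 ± 0.00734% of counts in Epi, 0.371 ± 0.0487% in PrE, 0.526 ± 0.114% in ICM and 0.651 ± 0.187% in TE. For complex IV the values were 0.18 ± 0.0038% in Epi, 0.197 ± 0.0656% in PrE, 0.307 ± 0.121% in ICM and 0.374 ± 0.227% in TE, and for complex III 0.126 ± 0.0683%, 0.139 ± 0.0341%, 0.164 ± 0.0444% and 0.218 ± 0.0665% in the same classes. These 3 complexes were higher at E3.5 than at E4.0 in the class means. ATP synthase, which held about as many counts as the rest together, was nearly level, at 0.958 ± 0.199% in Epi, 1.08 ± 0.0505% in PrE, 1.05 ± 0.177% in ICM and 1.15 ± 0.198% in TE. Complex II ran the other way in the class means, at 0.0938 ± 0.00932% in Epi, 0.0886 ± 0.0212% in PrE, 0.0814 ± 0.016% in ICM and 0.071 ± 0.0228% in TE. Its embryos overlapped: TE embryo 5, at 0.0962%, lay above Epi embryo 17 at 0.0872% and PrE embryo 14 at 0.0912%. TE embryos 2 and 4, at 0.0647 and 0.052%, lay below every E4.0 embryo. The class with the highest mean RPRT was Epi for 8 of the 77 genes tested, PrE for 8, ICM for 9 and TE for 52, but in complex II it was Epi for 1 gene and PrE for 3. The same count over all genes was not made, so these numbers do not set the respiratory chain apart. Each TE mean rests on single cells and 1 embryo can set it: Cox6c had 225, 1940 and 218 RPRT in TE embryos 2, 4 and 5. Over the 40 cells, which share embryos, the share of the 84 genes had r = -0.12 with total counts and 0.01 with the number of genes detected.

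**Figure D1:**
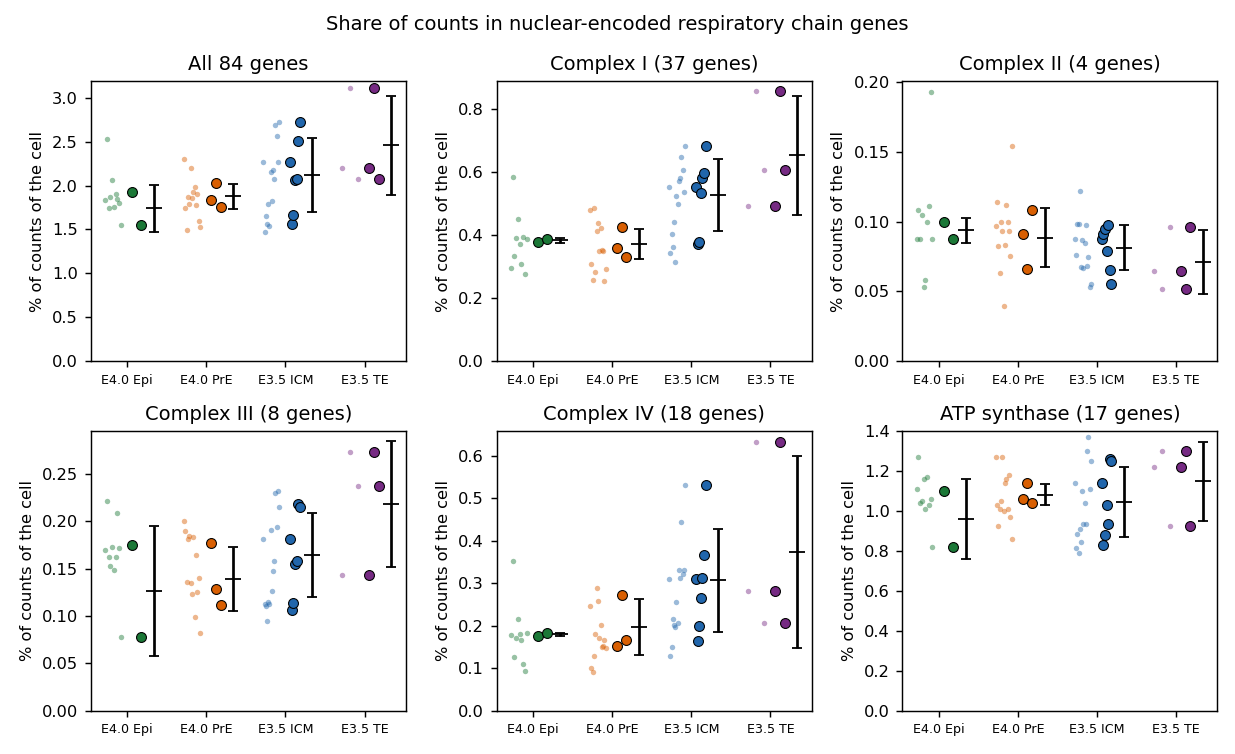
Share of counts (percent of all counts of a cell) in all 84 genes and in each complex, for Epi, PrE, ICM and TE. Small points are cells, large points are embryo means, and the bar and whiskers are the mean and SD over embryos; all 84 genes lay at 1.55 and 1.93% in the Epi embryos and at 2.07 to 3.11% in the TE embryos, with the ICM embryos spread over both, and complex II was the only complex whose mean was lowest in TE.

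Between the lineages of the E4.0 inner cell mass, no respiratory chain gene passed the test. Epi over PrE gave 0 of 77 genes at an adjusted p of 0.05 in edgeR's quasi-likelihood test with Benjamini-Hochberg adjustment over all genes, against a background of 0% of 12599 genes, and DESeq2 and limma-voom on the same sums also called 0 of them, against 3.84% and 1.9% of all genes. Only 2 genes had an unadjusted p under 0.05, both lower in Epi, where 3.57% of all genes had this. Of the 77 fitted changes 50 were below 0, against 54.4% of all genes, and their median was -0.31 on the log2 scale, against -0.11 for all genes, while it was 0.03 with library sizes alone and 0.02 with limma-voom. The median of the genes minus that of all genes was -0.19, and it lay on the other side of 0 without embryo 15 (0.15) or embryo 17 (0.18) and with the embryo as a block (0.03).

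Cox7a2l, which encodes a factor that joins complexes III and IV into supercomplexes, had 174 and 121 RPRT in the Epi embryos, against 205, 441 and 535 RPRT in the PrE embryos. The groups did not overlap, though the PrE value of embryo 14 was close to its Epi value, and the log2 change was -1.86 (SE 0.74, edgeR adjusted p = 0.629). Ndufs3, a core subunit of complex I, had 212 and 73.1 RPRT in the Epi embryos, against 190, 401 and 304 RPRT in the PrE embryos, with a log2 change of -1.58 (SE 0.75, edgeR adjusted p = 0.649). Its RPRT values overlapped, because embryo 14 was higher in Epi than in PrE. On CPM scaled by TMM, 6 of the 77 genes (Atp5f1, Atp5k, Cox7a2l, Ndufb10, Ndufs3 and Ndufs8) were lower in both Epi embryos than in every PrE embryo and 1 (Ndufv1) was higher, against 13% and 13.5% of all genes. Both shares were below the background.

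Between the lineages of the E3.5 blastocyst 1 gene differed. In ICM over TE, 1 of 77 genes passed the test, and it was lower in ICM: Uqcrh, the hinge protein of complex III that helps cytochrome c to dock. It had 76, 45.8, 38.9, 133, 46.6, 136 and 175 RPRT in the 7 ICM embryos, with a mean of 93.1 ± 54.5 RPRT, against 157, 574 and 538 RPRT in the 3 TE embryos, with a mean of 423 ± 231 RPRT. ICM embryo 13 lay above TE embryo 2, and all others lay below the TE embryos. The log2 change was -2.71 (SE 0.66, edgeR adjusted p = 0.0308). In embryo 4, which gave a cell to each class, Uqcrh had 76 RPRT in the ICM cell, against 574 RPRT in the TE cell. The background of this comparison was 4.23% of all genes, so 1 of 77 was not above it.

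The call of Uqcrh rested on the setting. Its adjusted p was 0.0765 with library sizes alone and 0.0529 to 0.111 without embryo 4, 5, 8, 9 or 10, highest without TE embryo 5, although it was lower in ICM in each of these fits. By contrast, with the embryo as a block, limma-voom called 2 genes, Uqcrh (adjusted p = 0.0291) and Atp5g1 (adjusted p = 0.043), against 3.44% of all genes. The number called was 32 with DESeq2, where 26% of all genes were called, 24 with the size factors of DESeq2, against 13.7%, and 11 without TE embryo 2, against 7.72%. It was 0 without TE embryo 5 and 1 without the ICM cells of embryos 4, 12 and 13. All TE cells belonged to the earlier study, and within that study alone, where 3 ICM cells remained, 0 genes were called (Uqcrh adjusted p = 0.322).

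Below this threshold the genes lay on the TE side as a group. Of the 77 genes 58 had a fitted change below 0, where 38.6% of all genes did, and their median was -0.71 on the log2 scale, against 0.70 for all genes, so that the median of the genes lay 1.41 below that of all genes. The scaling moved both medians, to -0.29 and 1.09 with library sizes alone and to -1.78 and 0.17 with the size factors of DESeq2, and the genes stayed below all genes in both. The distance depended on the data used: on log2(RPRT + 1) the medians were -0.22 and 0.18, without TE embryo 2 they were -1.19 and 1.10, and without embryo 4 they were -0.23 and 1.58. Without the ICM cells of embryos 4, 12 and 13 they were -1.16 and 0.55. An unadjusted p under 0.05 with the lower value in ICM was seen in 18 genes, against 9.37% of all genes, and with the higher value in 3, against 15.2%. With complexes set by gene name, the 18 were 8 of 35 genes in complex I, 3 of 8 in complex III and 7 of 17 in ATP synthase. None was in complexes II and IV by name, but 1 of the 8 was Ndufa4, which is now counted with complex IV. The 18 became 5 with library sizes alone, 40 in DESeq2, 10 without embryo 4, 11 without embryo 5 and 22 without the ICM cells of embryos 4, 12 and 13. On log2(RPRT + 1) with limma it was 6, with 7 higher in ICM, so the imbalance of lower over higher was not seen on that scale. The share of all genes under this p was not counted in these settings. The numbers alone thus do not tell a shift of these genes from a shift of all genes.

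Among them, Ndufb8, an accessory subunit of complex I, had 289, 464 and 511 RPRT as the lowest, median and highest ICM embryos, against 407, 439 and 2030 RPRT in TE, where embryo 5 alone stood out (log2 change -1.89, SE 0.54, edgeR adjusted p = 0.0501). Atp5g1, which encodes the same c subunit as Atp5g3, had 239, 604 and 931 RPRT as the lowest, median and highest ICM embryos, against 617, 2210 and 1010 RPRT in TE embryos 2, 4 and 5 (log2 change -1.68, SE 0.49, edgeR adjusted p = 0.0562). The TE embryos overlapped the upper ICM embryos for both genes. The largest fitted differences after Uqcrh were those of Ndufv3, an accessory subunit near the NADH site, at -2.27, Atp5e, the epsilon subunit of the catalytic head, at -2.24, and Ndufa3, a small membrane subunit, at -2.18, with adjusted p between 0.105 and 0.177. Atp5e had 9.76, 115 and 215 RPRT as the lowest, median and highest ICM embryos, against 163, 872 and 195 RPRT in TE, and Ndufa3 had 18.1, 34.6 and 180 RPRT, against 20.9, 180 and 457 RPRT. In both genes the classes overlapped, and embryo 13 was the highest of the ICM embryos. On TMM-scaled CPM, 1 of 77 genes (Ndufs3) was lower in every ICM embryo than in every TE embryo, against 2.37% of all genes.

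Sdhd was 1 of the 19 genes with a fitted change above 0 in ICM over TE, and the one with the lowest p. It had 1.93, 23.7 and 49.2 RPRT as the lowest, median and highest ICM embryos, against 2.41, 2.0 and 0.711 RPRT in the 3 TE embryos, and the log2 change was 3.61 (SE 1.21, edgeR adjusted p = 0.0872). Only ICM embryo 13 reached down into the TE values, followed by embryos 4 (6.79 RPRT) and 12 (8.67 RPRT), the 3 ICM embryos with high trophectoderm markers, whose part was not tested. At E4.0 Sdhd had 63.2 and 24.5 RPRT in Epi and 85.2, 7.59 and 94.5 RPRT in PrE. The other complex II genes did not share this gap: Sdha averaged 93 ± 26.3 RPRT in ICM and 45 ± 44.6 RPRT in TE, Sdhb 325 ± 133 RPRT in ICM and 365 ± 163 RPRT in TE, and Sdhc 180 ± 80 RPRT in ICM and 201 ± 162 RPRT in TE. Cox7a1, the form of Cox7a known from heart and skeletal muscle, had 303 counts over the ICM cells and 0 over the TE cells. Against a floor of 3 counts over the TE cells this is at least 14.5-fold higher, which covers counting error only. The gene did not pass the test (edgeR adjusted p = 0.154). ICM embryo 4, which also gave a TE cell, had 0 RPRT, and embryos 12 and 13 were highest at 16.5 and 9.39 RPRT. All 3 had high trophectoderm markers, and the other ICM embryos had 0.993 to 5.89 RPRT. Atp5s was listed at 0 RPRT in ICM embryos 4 and 13 and in TE embryos 2 and 5 and had up to 26.1 RPRT in ICM and 2.94 RPRT in TE embryo 4, where its count was 1 (edgeR adjusted p = 0.154).

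**Figure D2:**
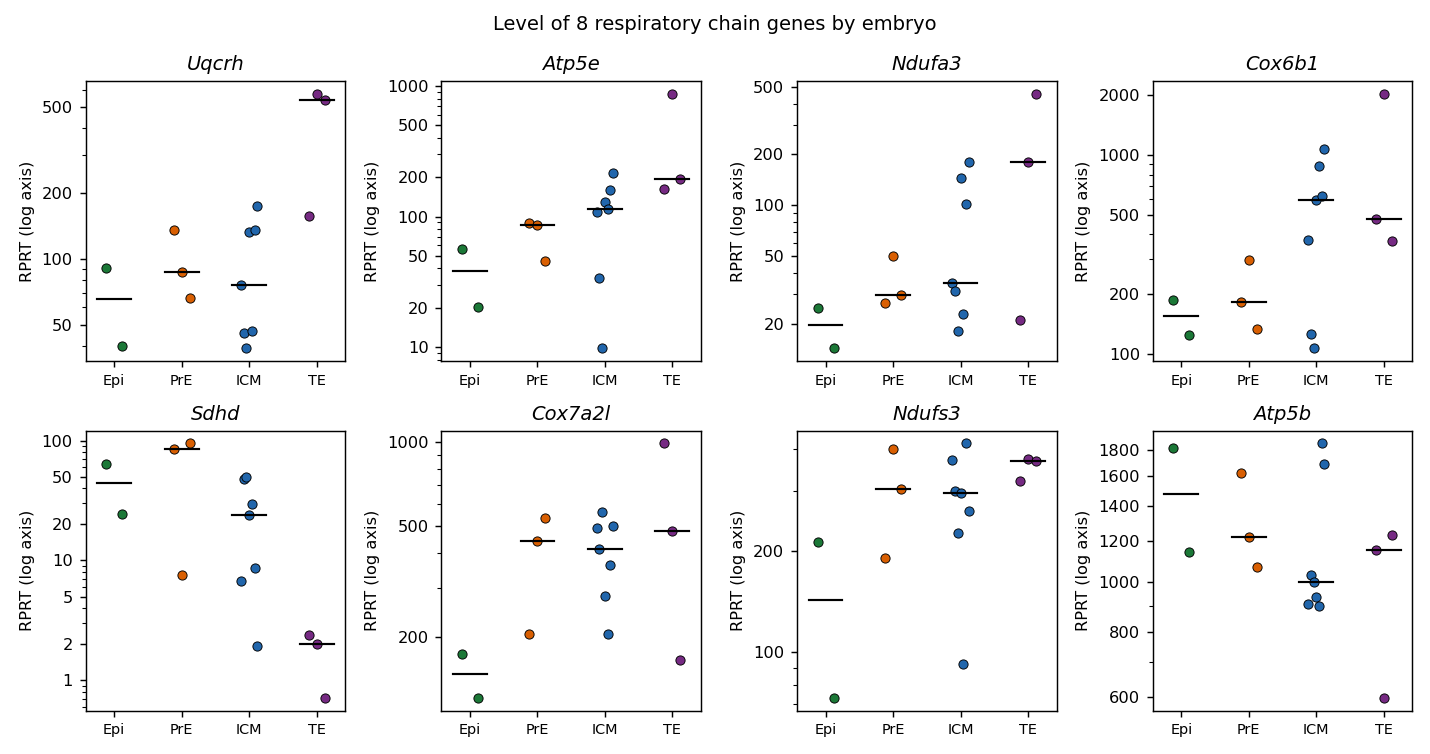
Level in RPRT (log axis) of 8 genes for Epi, PrE, ICM and TE, with 1 point per embryo and the median as a line. Uqcrh lay at 157 to 574 in TE and at 38.9 to 175 in ICM, Sdhd lay at 0.711 to 2.41 in TE and at 1.93 to 49.2 in ICM, and Atp5b showed no such gap.

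From the E3.5 ICM to its E4.0 descendants no respiratory chain gene passed the test. In PrE over ICM, edgeR called 0 of 77 genes, against 0% of all genes, and 0 had an unadjusted p under 0.05 with the lower value in PrE, against 5.82% of all genes. Fitted changes were below 0 for 53 of 77 genes, against 51.7% of all genes, with a median of -0.63, against -0.05 for all genes. That median was -0.38 without embryo 13 and -1.03 without embryo 15. In Epi over ICM, edgeR also called 0 of 77 genes, against 0.00794% of all genes, and 1 gene (Cox7a2l, log2 change -1.52, edgeR adjusted p = 0.66) had an unadjusted p under 0.05 with the lower value in Epi, against 4.26%. Here 63 of 77 fitted changes were below 0, against 55.5% of all genes, with a median of -0.82, against -0.21. DESeq2 called 0 of the genes in PrE over ICM and in Epi over ICM, against 3.2% and 4.79% of all genes, and limma-voom also called 0, against 1.99% and 1.9%. Both comparisons share the ICM cells.

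The ICM embryos with trophectoderm markers moved with this offset. Without the ICM cells of embryos 4, 12 and 13, 44 of 77 genes were below 0 in PrE over ICM, with a median of -0.18 against 0.02 for all genes, and 55 were below 0 in Epi over ICM, with a median of -0.40 against -0.10. In PrE over ICM, 1 gene (Ndufb3) was lower in every PrE embryo than in every ICM embryo on TMM-scaled CPM, against 1.46% of all genes. In Epi over ICM this held for 2 genes (Atp5f1 and Cox7a2l), against 3.05%. Cox7a2l, with 174 and 121 RPRT in Epi, had 205, 414 and 563 RPRT as the lowest, median and highest ICM embryos, so that the Epi embryos were below all 7 ICM embryos as well as all 3 PrE embryos. Atp5f1, the b subunit of the ATP synthase stalk, had 502 and 492 RPRT in Epi and 456 to 773 RPRT in ICM, where ICM embryo 11 overlapped on this scale.

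Between the stages, the only groups that the sample labels themselves give, most fitted changes of the chain were below 0 at E4.0, but no gene passed. E4.0 over E3.5 compared 4 with 9 embryos, and edgeR called 0 of 77 genes, against 0.0186% of all genes. DESeq2 and limma-voom called 0 as well, against 2.47% and 0.752% of all genes. An unadjusted p under 0.05 was found for 17 genes, each lower at E4.0, where 5.9% of all genes had this, and 65 of 77 fitted changes were below 0, against 54.6% of all genes. The median was -1.28 on the log2 scale, against -0.14 for all genes, and -0.76 without embryo 5. The 17 was unsteady: it was 29 in DESeq2 and 0 in limma-voom, 5 without embryo 4 or 13, 10 without embryo 5, 7 without embryo 14, 2 without embryo 16 or 17, and 26 without embryo 9. For these settings the share of all genes with such a p was not counted. The 4 genes with the largest fitted difference among the 17 were Cox5b at -2.78, Ndufa3 at -2.74, Ndufa2 at -2.52 and Ndufa1 at -2.47, with adjusted p between 0.599 and 0.638, and the lowest adjusted p was that of Atp5g1 at 0.548. No gene was lower in every E4.0 embryo than in every E3.5 embryo (0 of 77, against 0.483% of all genes). Lineage and stage cannot be told apart here, because TE cells were sampled at E3.5 only. Without the TE cells 59 of 77 genes were below 0, with a median of -0.64 against 0.05 for all genes. In that fit 7 genes had an unadjusted p under 0.05, and the share of all genes was not counted.

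Cox5b, the zinc-binding subunit of complex IV, shows how uneven these genes were. It had 58.9 and 9.37 RPRT in Epi and 69.7, 21.3 and 13.8 RPRT in PrE at E4.0, against 6.63, 55.6 and 723 RPRT as the lowest, median and highest ICM embryos and 73, 265 and 23.9 RPRT in TE at E3.5. Embryo 13 stood above the next ICM embryo at 265 RPRT, and ICM embryo 11 was below every E4.0 embryo. Ndufa1, an accessory subunit of complex I encoded on the X chromosome, had 38.2 and 12.3 RPRT in Epi and 35.4, 7.33 and 9.98 RPRT in PrE, against 9.29, 39.0 and 96.2 RPRT as the lowest, median and highest ICM embryos and 21.8, 260 and 97.6 RPRT in TE. Ndufa2 averaged 35.8 ± 9.34 RPRT in Epi and 31.1 ± 17.5 RPRT in PrE, against 83.4 ± 70.1 RPRT in ICM and 226 ± 210 RPRT in TE. For each of these genes the E3.5 and E4.0 embryos overlapped.

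The genes with the lowest fitted changes at E4.0 mostly had short transcripts. The length behind each RPRT value was recovered as the count divided by RPRT and by the total count of the cell. It was steady over cells for the respiratory chain genes, with a median coefficient of variation of 3.64%. Over all genes this was 22.3%, so the lengths of other genes are less certain. The lengths of the respiratory chain genes ran from 313 to 2745 bases with a median of 668, against a median of 1762 for all genes. In E4.0 over E3.5, all 31 genes under 600 bases had a fitted change below 0, against 81.9% of other genes of that length. Their median was -1.84 on the log2 scale. For the 20 genes of 600 to under 1000 bases the median was -0.96, for the 10 of 1000 to under 1500 bases it was -0.06 with 5 below 0, and for the 16 of 1500 bases or more it was -0.16 with 10 below 0. The other genes tested followed length in the same direction with smaller values, with medians of -1.13 for 421 genes under 600 bases, -0.45, -0.19 and -0.02 in the longer groups. Over genes, which are not independent replicates, the rank correlation of length with the fitted change was 0.66 for the respiratory chain genes and 0.13 for other genes.

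The same held against the ICM in each E4.0 lineage. Genes under 600 bases had a median of -1.32 in Epi over ICM and of -1.11 in PrE over ICM, against -1.18 and -0.99 for other genes of that length. In each comparison 30 of the 31 were below 0, against 73.9% of other genes of that length in Epi over ICM and 74.1% in PrE over ICM. Respiratory chain genes of 1500 bases or more had medians of -0.11 in Epi over ICM and 0.16 in PrE over ICM. In these comparisons the medians of the respiratory chain genes were thus near those of other genes of their length. In ICM over TE they were further apart: genes under 600 bases had a median of -1.10, against 0.00 for other genes of that length, and genes of 600 to under 1000 bases had -0.72, against 0.85. In Epi over PrE the medians of the 4 length groups lay between -0.74 and -0.22 without an order.

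Genes under 600 bases took 6.51 ± 2.69% of the counts of the 84 genes in Epi, 5.57 ± 1.7% in PrE, 11.4 ± 6.22% in ICM and 16.3 ± 9.03% in TE. The ICM embryos ran from 2.71% (embryo 9) to 20.3% (embryo 13), so embryos 8 and 9, at 4.09 and 2.71%, were as low as the E4.0 embryos, and the others were at 10.4% or more. Without the ICM cells of embryos 4, 12 and 13 the median of the genes under 600 bases was -0.61 in Epi over ICM, -0.48 in PrE over ICM and -1.64 in E4.0 over E3.5. Without the TE cells it was -1.23 in E4.0 over E3.5. Whether the capture of short transcripts during amplification differed between embryos was not tested. The complex II genes ran from 961 bases (Sdhb) to 2745 bases (Sdha). The part of length in the contrast between the shares of the complexes was not tested.

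**Figure D3:**
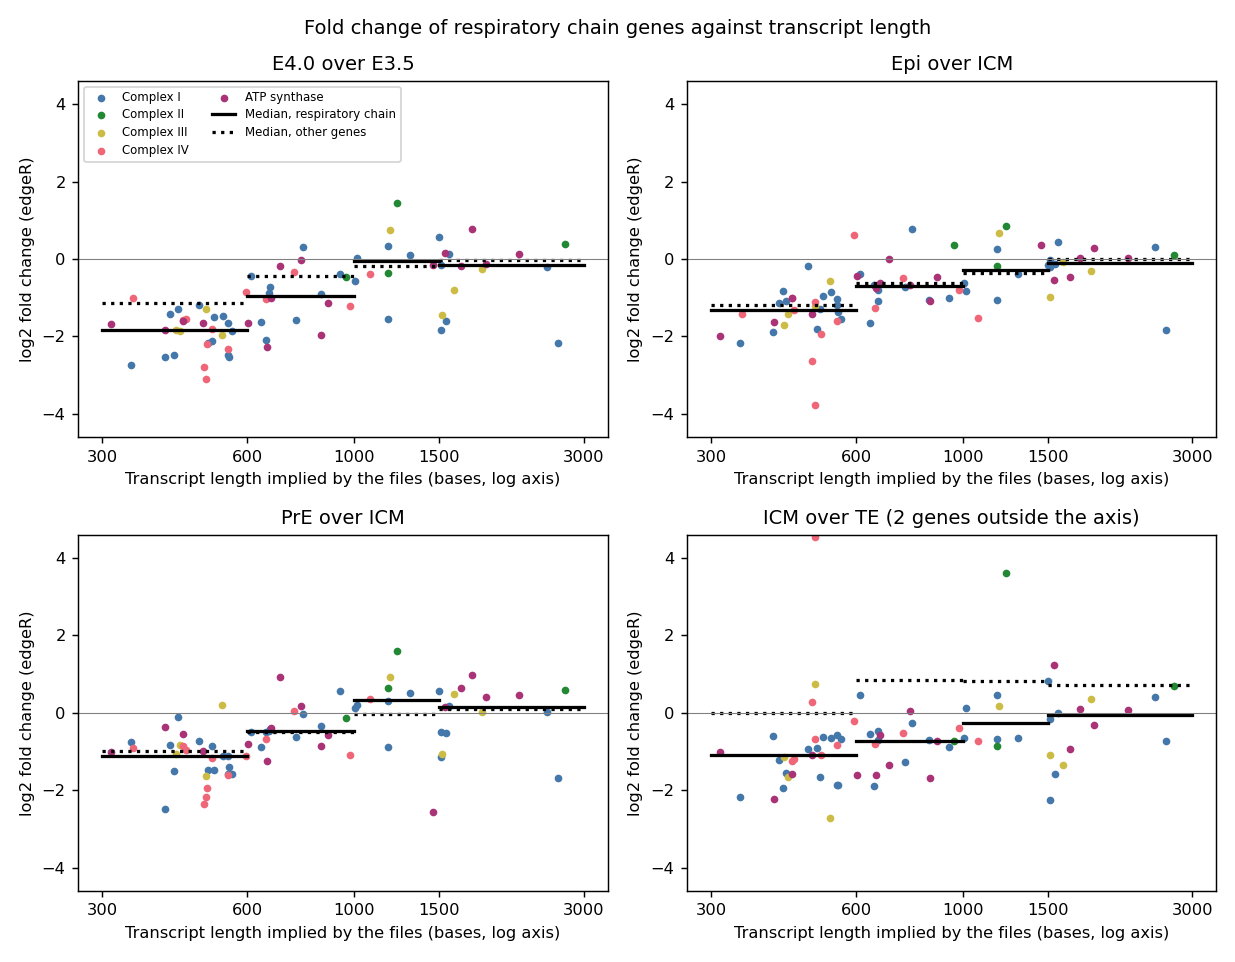
Fitted log2 fold change (edgeR) of the 77 genes against transcript length in bases (log axis), coloured by complex, for E4.0 over E3.5, Epi over ICM, PrE over ICM and ICM over TE. Solid lines are medians of respiratory chain genes in 4 length groups and dotted lines those of other genes: in E4.0 over E3.5 the solid line lies at -1.84 under 600 bases and at -0.16 from 1500 bases, and in ICM over TE the solid line lies below the dotted line in each length group. In that panel 2 genes (Cox7a1 and Atp5s) fall outside the axis.

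The c subunit of ATP synthase is made from 3 genes, Atp5g1, Atp5g2 and Atp5g3, which differ in the targeting sequence that is removed and give the same mature protein. Atp5g3 was the largest part in each class mean, with 54 ± 0.245% of the summed RPRT of the 3 genes in Epi, 62.2 ± 7.16% in PrE, 40.9 ± 12.6% in ICM and 43.7 ± 2.17% in TE. Atp5g1 took 14.9 ± 1.67% in Epi, 13.9 ± 6.56% in PrE, 22.8 ± 7.69% in ICM and 32.1 ± 8.4% in TE. Atp5g2 took 31.1 ± 1.92%, 23.9 ± 0.806%, 36.3 ± 10.9% and 24.2 ± 8.99% in the same classes. The Atp5g1 share was 25.2% or more in every TE embryo and 18.7% or less in every E4.0 embryo, while the ICM embryos spanned 11.5 to 33.5%. In ICM embryo 11, Atp5g2 made up 59.7%, apart from all other embryos.

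**Figure D4:**
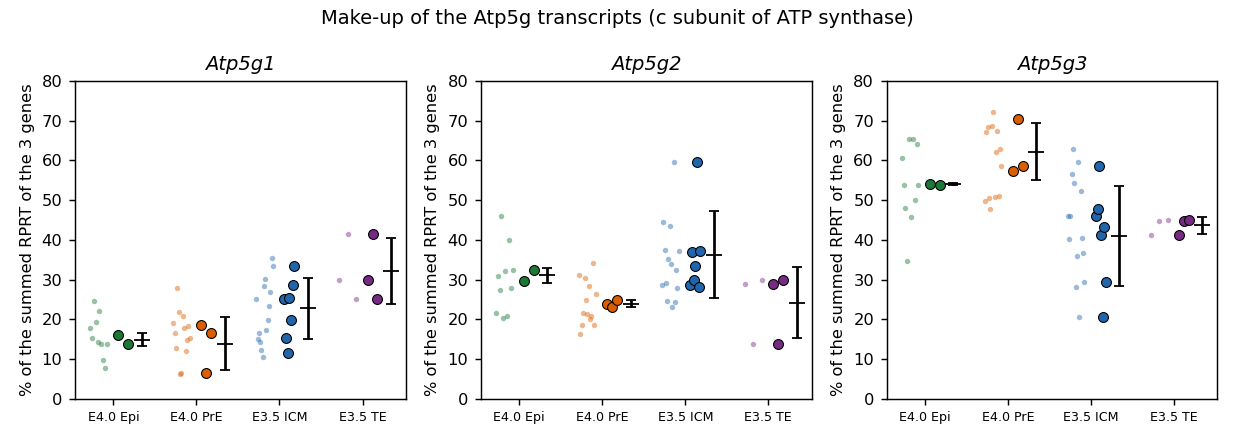
Share (percent) of the summed RPRT of Atp5g1, Atp5g2 and Atp5g3 that each gene took, in cells (small points) and embryos (large points), with the mean and SD over embryos. Atp5g1 averaged 14.9% in Epi and 32.1% in TE, and Atp5g3 62.2% in PrE and 40.9% in ICM, where the embryos were spread most.

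Where a subunit has a form for most tissues and a form for special tissues, the common form dominated. Cox6b1 averaged 156 ± 43.4 RPRT in Epi, 204 ± 83.2 RPRT in PrE, 540 ± 363 RPRT in ICM and 962 ± 932 RPRT in TE, against 0.877, 2.68, 6.13 and 1.12 RPRT for Cox6b2, the testis form. Cox7a2 averaged 61.6, 74.6, 135 and 195 RPRT in the same classes, against 2.56, 2.79, 5.28 and 0 RPRT for Cox7a1. Cox6a1 averaged 125, 110, 342 and 466 RPRT and Cox8a averaged 86.4, 39.6, 157 and 201 RPRT, where their muscle forms Cox6a2 and Cox8b had 0 counts. Ndufa4, now counted with complex IV, averaged 65.6, 69.9, 151 and 323 RPRT. Cox7b, on the X chromosome, averaged 99.7, 65.1, 156 and 156 RPRT. None of these genes passed the test in any of the 5 comparisons.

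For X-linked genes the study asked when the silenced paternal copy is used again. Of the 84 genes 3 are on the X chromosome, Ndufb11, Cox7b and Ndufa1, and a paternal share of allelic reads, which came without read depth, could be used in enough cells for Ndufb11 only, a complex I subunit at chrX:20615326-20617619. Its paternal share was 0.432 and 0.652 in the Epi embryos, 0.271, 0.622 and 0.318 in the PrE embryos, 0.193, 0.166, 0.0636, 0.21, 0.436, 0.201 and 0.334 in the ICM embryos and 0.271, 0.274 and 0.0493 in the TE embryos. Paternal reads were thus present in every embryo of every class, TE included. The median over all X-linked genes averaged 0.36 in Epi embryos, 0.0229 in PrE, 0.111 in ICM and 0.00876 in TE.

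The paternal share of Ndufb11 averaged 0.542 in Epi and 0.229 in ICM, a difference of 0.313 (exact two-sided permutation test over embryos, p = 0.0556, adjusted p over 4 comparisons 0.222, smallest p possible 0.0278). In PrE over ICM the difference was 0.175 (exact permutation p = 0.133, adjusted p = 0.267) and 0.0654 without embryo 15. In Epi over PrE it was 0.138 (exact permutation p = 0.5, smallest possible 0.1), 0.248 without embryo 15 and 0.089 without the 4 cells under 70% mapped, and in ICM over TE 0.0309 (exact permutation p = 0.733). None passed, although the highest embryo of each E4.0 lineage was above 0.6 and no E3.5 embryo was. These were Epi embryo 17, with 1 cell, and PrE embryo 15, with 2 cells at 0.444 and 0.8. Cox7b had a ratio in 4 cells, each at 0, of which 1 was an Epi cell with 159 RPRT.

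**Figure D5:**
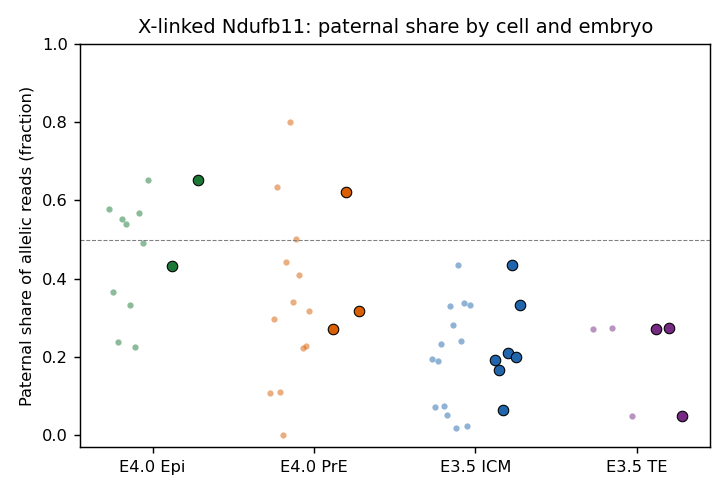
Paternal share of allelic reads (fraction, axis from 0 to 1) of the X-linked gene Ndufb11 in cells (small points) and embryos (large points) for Epi, PrE, ICM and TE; the dashed line is equal use of both copies. Embryo means were 0.432 and 0.652 in Epi and 0.0493 to 0.274 in TE.

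On the autosomes both parental copies were used. With a ratio in at least 10 cells, 55 genes had a mean paternal share with a median of 0.479, and 47 of them (85.5%) lay between 0.4 and 0.6, where 65.8% of 6217 autosomal genes did. Cox7c, a small subunit of complex IV at chr13:86044798-86046795, was the highest, at 0.888 over 39 cells, and it was high in each class, at 0.893 in Epi, 0.887 in PrE, 0.866 in ICM and 0.84 in TE. Atp5s was the lowest, at 0.312 over 10 cells, and Atp5e had 0.346 over 39 cells. Differences in the mapping of the parental genomes were not tested.

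Genes that serve the chain without being subunits were counted beside it, and in ICM over TE the background for their calls was again 4.23% of all genes. In that comparison, 1 of 44 assembly factors was called higher (Tmem126b, of complex I, with 0 counts in the TE cells, adjusted p = 0.0441), with Sdhaf2 (complex II, log2 change 3.61, adjusted p = 0.0567) and Ndufaf5 (complex I, adjusted p = 0.0643) next. Of 77 mitochondrial ribosomal proteins 1 was called higher (Mrpl39, log2 change 4.35, adjusted p = 0.0228), with Mrpl20 (-1.66) and Mrps2 (2.79) next. Of 16 citric acid cycle genes 1 was called lower (Idh3a, a subunit of isocitrate dehydrogenase, log2 change -2.20, adjusted p = 0.0282), with Sucla2 (2.45) and Pdha1 (-1.41) next. Of 13 regulators 1 was called higher (Tfb1m, which modifies mitochondrial ribosomal RNA, with 1, 0 and 2 counts in the TE cells, adjusted p = 0.0216), with Esrra (-4.09) and Ppargc1b (-6.40), a nuclear receptor and a coactivator of respiratory genes, next. None of 9 electron carriers was called, with Coq9 (-2.59), Etfdh and Cycs, cytochrome c itself (-1.41), lowest in p. The medians were 0.68 for assembly factors, 0.17 for ribosomal proteins, -0.43 for the citric acid cycle -0.46 for carriers and 0.31 for regulators, against 0.70 for all genes and -0.71 for the respiratory chain. In the other 4 comparisons edgeR called none of these genes.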

How the data were processed

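The authors aligned reads to both parental genomes on mm10 with TopHat2 2.1.0 and counted them per gene with HTSeq 0.6.1, and the deposited counts are raw. RPRT, a signal, was deposited after the authors had scaled reads to depth and to retrotranscribed length. The deposited allelic ratios are fractions, paternal over all allelic reads. For Ndufb11 and the autosomal genes a ratio was used where RPRT was above 4; for Ndufs5 every deposited ratio was. Stage came from the sample labels, class and embryo from the study's table of cells. The members and lists were chosen with earlier results of these data known. Counts summed per embryo and class (stage: per embryo) were tested with edgeR 4.0.16 (R 4.3.3; TMM, filterByExpr, quasi-likelihood F test, Benjamini-Hochberg threshold 0.05), and SE is the log2 change over the root of F. Alternatives were limma 3.58.1, DESeq2 1.42.0, other scalings, filters and pseudocounts (1 and 0.1), RPRT, and omission of embryos or cells. Ratios were compared by exact permutation over all arrangements of the embryos (numpy 2.4.6). The pipeline was tested on simulated data. At the spread of the real sums, few respiratory chain genes given a log2 change of 2, up or down, were called. Their share was 0% in Epi over PrE, 7.69% in ICM over TE, 5.13% in PrE over ICM and 2.56% in Epi over ICM. At a log2 change of 4 it was 28.9%, 78.9%, 57.9% and 36.8% in the same order. A gene that did not pass can therefore still differ between classes.

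Named genes were those that passed, up to 4 with the largest rise and fall among unadjusted p under 0.05, the 3 highest and 1 lowest per complex, isoform pairs, Atp5g genes, X-linked and untested genes, and up to 3 per other list. Others were named after their values were seen: genes with groups that did not overlap, Atp5g1 and Ndufb8, Cox7c, and Sdha to Sdhc. Embryos 4 and 14 gave cells to 2 classes, so embryo was a block in an alternative (correlation within blocks 0.187). The edgeR fits of the classes took the sums of such an embryo as independent. Nothing else says whether embryos shared a litter or day. The edgeR p-values measure the spread between the sums, pooled over the groups of a fit. Where an embryo gave 1 cell, this spread mixes differences between cells with those between embryos. Depth limits only low genes, since totals exceed 1019112 counts per cell.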

Additional observations from a re-analysis of the deposited data

Results flagged for a closer look

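In 24 groups of ICM embryos examined, 3 held an embryo far from the others, and chance flags about 1 in 20 groups. The Atp5g2 share of the summed Atp5g RPRT was 59.7% in ICM embryo 11, against 37.1% in the next embryo and 28.2% in the lowest. Cox5b had 723 RPRT in ICM embryo 13, against 265 RPRT in the next embryo. Ndufa1 had 96.2 RPRT in ICM embryo 13, against 46.0 RPRT in the next embryo. Embryos 11 and 13 each gave 1 ICM cell.

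Ndufs5 had an allelic ratio in 40 cells while its row held 1 count, so a signal was present in the allelic data that the counts lacked. Its paternal share ran from 0.0327 to 1 with a median of 0.645 over cells. It was the only 1 of the 60 genes with a ratio that had a ratio in 20 or more cells and under 1000 counts. The cause was not tested.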

How the results depend on the processing

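The number of respiratory chain genes called stayed at 0 in Epi over PrE, PrE over ICM, Epi over ICM and E4.0 over E3.5 under each alternative run, leaving out each embryo included. In ICM over TE it was 1 in edgeR, 32 with DESeq2 (2 higher, 30 lower), 24 with edgeR and the size factors of DESeq2, 2 with the embryo as a replicate block, and 0 with library sizes alone, with only the 2 classes in the fit, with log2(RPRT + 1), with log2(RPRT + 0.1), with the mean CPM of cells and within the earlier study, and 0 to 11 when each embryo was left out. The 11 came without embryo 2, and the counts were 2 without embryo 4 or 13 and 0 without embryo 5, 8, 9 or 10. The block changed no other call, and the cause of these differences was not tested. Blocks and fits of 2 classes could not be made for the stages. The share of counts became 2.39% in Epi, 2.38% in PrE, 2.96% in ICM and 3.57% in TE as a share of RPRT, 1.47% in Epi and 1.63% in PrE without Atp5b, and 2.38% in PrE, 2.64% in ICM and 3.24% in TE outside the 100 genes with the highest counts. The median of the genes minus that of all genes in Epi over PrE, -0.19, was 0.032 with the replicate block and -0.45 to 0.18 when each embryo was left out (0.15 without embryo 15, 0.18 without embryo 17). The difference of the Ndufb11 paternal share in ICM over TE ran from -0.0435 (without embryo 5) to 0.075 when each embryo was left out, with -0.0035 without embryo 11. Fits without the TE cells, and without the ICM cells of embryos 4, 12 and 13, were chosen after the data were seen.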
